A study of Mus musculus with 12 samples.

Results

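The 37 genes described here carry out sterol and fatty acid synthesis, control the SREBP transcription factors, and move cholesterol out of cells. They were selected by name from the 21930 genes of the count table, and all 37 were found in it. Of these, 18 encode enzymes of sterol synthesis and 8 encode enzymes that make, elongate or desaturate fatty acids. Another 6 are grouped here as SREBP control (Srebf1, Srebf2, Scap, Insig1, Insig2 and Stard4). Of that group, Stard4 encodes a cholesterol carrier rather than SREBP or a protein that holds or escorts it. A further 3 are targets of the liver X receptors in cholesterol efflux and uptake (Abca1, Abcg1 and Mylip), and 2 are those receptors (Nr1h2 and Nr1h3). The names were chosen with earlier results of these 12 libraries known, among them the lower level of Insig1 after NaIO3, so every value below describes these libraries and none is independent support for the choice.

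Male C57BL/6J mice entered the diet at 8 weeks of age and were fed ad libitum (AL) or by intermittent fasting (IF), which alternated 24 hours without food and 24 hours with food for 12 weeks. They then received 1 intraperitoneal injection of PBS or of 25 mg/kg NaIO3, an oxidant that injures the retinal pigment epithelium (RPE), and RNA was sequenced 7 days later. Per the paper, each diet was continued after the injection until the experiments ended. The 4 groups, AL + PBS, IF + PBS, AL + NaIO3 and IF + NaIO3, held 3 libraries each, labelled as the RPE, choroid and sclera complex. All mice were labelled wild type. The sources used here do not say whether the IF mice were collected on a fasting or a feeding day.

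Cells make sterols when membrane cholesterol is low. The SREBP precursors sit in the endoplasmic reticulum with their escort SCAP, and INSIG proteins hold that pair in place when sterols are abundant; when sterols fall, the pair moves to the Golgi, the precursor is cleaved, and the freed factor switches on the sterol and fatty acid genes, Insig1 among them. For cholesterol, liver X receptors, which bind oxidized sterols, act in the other direction and switch on exporters such as ABCA1. In the eye the RPE takes up the lipid-rich tips of photoreceptor outer segments every day and has to dispose of their cholesterol.

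The libraries held between 26364665 and 43046950 counts, and each member was counted at least 130 times in every library, the lowest being Nr1h3. Levels are given in CPM, the count of a gene relative to its library's total after TMM scaling in edgeR. Which of several genes had the higher level was read only from the deposited FPKM, which divide by gene length. AL + NaIO3 replicate 3 stood apart from its group: its summed level of 15 photoreceptor markers was 21269 CPM against 40636 and 69299 CPM in the other libraries of the group, and its summed level of 14 macrophage and microglia markers was 1027 CPM against 187 and 260.4 CPM. The 12 RPE markers were detected in every group (1088 to 2930.1 CPM summed). Photoreceptor markers were also detected in all 12 libraries (21269 to 69299 CPM summed), and the extraction protocol names the eye cup. In such bulk tissue fewer cells of a type and less RNA per cell cannot be told apart.

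With food available ad libitum, NaIO3 went with lower values for 20 of the 24 sterol synthesis and SREBP control genes and a higher level of the cholesterol exporter Abca1. Under IF, 9 of those 24 had lower values with NaIO3 and 15 higher, with log2 fold changes from -0.27 to 0.35 against -1.07 to 0.18 under AL, and Abca1 was higher by 0.37 against 1.53. Fatty acid synthesis genes had mixed signs. Log2 fold changes are given ± their standard error. A member was called where edgeR's quasi-likelihood test gave an adjusted p under 0.05 over all genes tested and the fold change was at least 1.5. In AL + NaIO3 against AL + PBS, 1 of the 37 members was called, Insig1, where 0.0769% of all 15612 genes tested were called. With all 12 libraries fitted together, which shares 1 estimate of the spread among the 4 groups, 5 members were called (Insig1, Stard4, Hmgcs1, Idi1 and Abca1; 1.11% of all genes), and DESeq2 called the same 5 (2.53% of all genes).

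In IF + NaIO3 against AL + NaIO3, which uses the same AL + NaIO3 libraries, edgeR on the 6 libraries called 0 members (0.0383% of all genes), although 18 of the 37 had an unadjusted p under 0.05 (11.7% of all genes). The fit of all 12 libraries called 6 members, the 5 above and Fdft1 (1.19% of all genes), and DESeq2 called 7, those 6 and Msmo1 (2.94% of all genes). The interaction of diet and injection, which asks whether the NaIO3 difference itself differed between diets, was called for Insig1 alone by edgeR (0.0313% of all genes). DESeq2 called it for Insig1, Stard4, Hmgcs1, Idi1, Sc5d and Abca1 (1.22% of all genes). With AL + NaIO3 replicate 1 left out, edgeR called it for 9 members, namely those 6, Msmo1, Sqle and Acly, while calls over all genes went from 5 to 366. With AL + NaIO3 replicate 3 left out it was called for Insig1, Hmgcs1, Idi1 and Stard4, while calls over all genes went to 32.

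Neither of the remaining comparisons gave a call for a member. In IF + PBS against AL + PBS, 0 members were called by edgeR on 6 libraries (0.0% of all genes), by the fit of all 12 libraries (0.0%) or by DESeq2 (1.17%), and 7 had an unadjusted p under 0.05 (17.1% of all genes). In IF + NaIO3 against IF + PBS the counts were also 0 by edgeR on 6 libraries (0.0%), by the fit of all 12 libraries (0.0%) and by DESeq2 (0.729%), with 7 members at an unadjusted p under 0.05 (15.2% of all genes). Among the 6 SREBP control genes, 4 had every IF + PBS library below every AL + PBS library (11.6% of all genes). These were Srebf1, Insig1, Insig2 and Stard4, and 0 had every IF + PBS library higher (10.3%). Between the IF groups, Insig2 and Stard4 had every NaIO3 library higher (10.3%), and Srebf2 and Scap had every one lower (10.7%). A difference that was not called does not show that levels were equal.

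**Figure D1:**
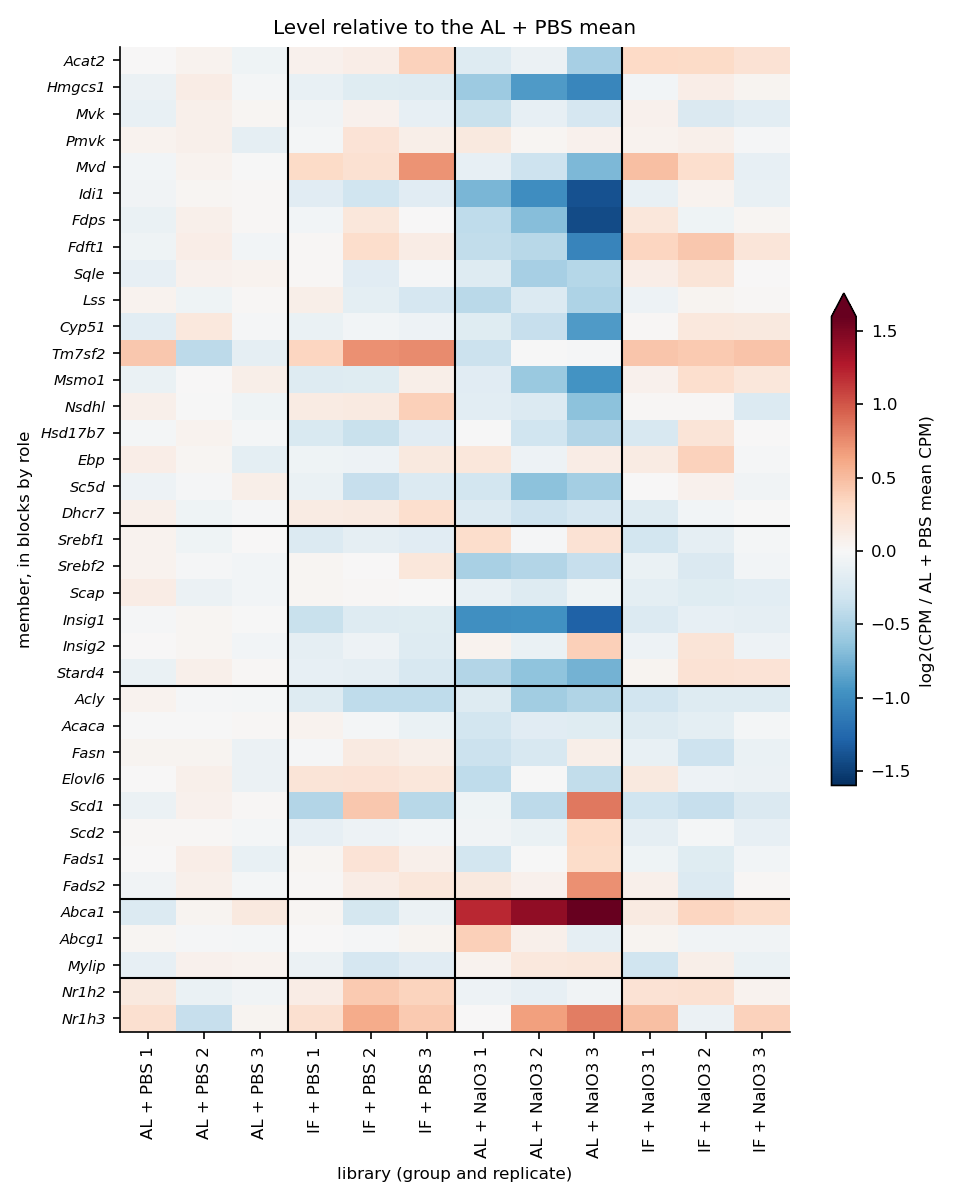
Level of each of the 37 members (rows, in blocks for sterol synthesis, SREBP control, fatty acid synthesis, LXR efflux targets and LXR receptors) in each of the 12 libraries (columns), as log2 of its TMM-scaled CPM over the AL + PBS mean on a color scale that saturates below the highest value, Abca1 in AL + NaIO3 replicate 3. The AL + NaIO3 columns are blue over most of the upper blocks and dark red at Abca1, and the IF + NaIO3 columns are close to white.

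Insig1 (chr5:28071363-28078662, build GRCm38) encodes the protein that holds the SREBP and SCAP pair in the endoplasmic reticulum, and it is itself an SREBP target. Its level was 103, 107 and 105 CPM in AL + PBS and 82.3, 90.7 and 91.8 CPM in IF + PBS. With NaIO3 it was 53.1, 53.5 and 42.8 CPM in AL + NaIO3 and 90.6, 96.2 and 95.3 CPM in IF + NaIO3. The 3 AL + NaIO3 libraries lay below all others, and the IF + NaIO3 libraries overlapped those of IF + PBS and lay below those of AL + PBS. Fitted on 6 libraries, the log2 fold change in AL + NaIO3 against AL + PBS was -1.07 ± 0.12 (adjusted p = 0.048), so Insig1 fell. Between the diets under NaIO3 it was 0.91 ± 0.12 (adjusted p = 0.081), which edgeR did not call on 6 libraries and did call with all 12 fitted together (0.92, adjusted p = 0.0021). The interaction was 1.17 ± 0.15 (adjusted p = 0.0098). The call on 6 libraries stood close to the threshold: leaving out any 1 library other than AL + NaIO3 replicate 3 raised the adjusted p to between 0.081 and 0.383, while without that replicate it was 0.0062 with a log2 fold change of -0.98. A replicate block also ended the call on 6 libraries.

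Stard4, a carrier that moves cholesterol between membranes, was also lowest in AL + NaIO3. It measured 27.8, 31.7 and 30.3 CPM in AL + PBS and 27.4, 27.0 and 25.01 CPM in IF + PBS. After NaIO3 it was 21.6, 19.2 and 17.7 CPM in AL + NaIO3 and 31.0, 35.1 and 34.9 CPM in IF + NaIO3. All AL + NaIO3 libraries were below the other 9. Its log2 fold change was -0.61 ± 0.14 (adjusted p = 0.25) in AL + NaIO3 against AL + PBS and 0.78 ± 0.14 (adjusted p = 0.15) in IF + NaIO3 against AL + NaIO3, and both passed with all 12 libraries fitted together (adjusted p = 0.030 and 0.0087).

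Srebf2 encodes the SREBP that acts mainly on sterol genes. Its level was 177, 168 and 164 CPM in AL + PBS and 173, 170.5 and 192 CPM in IF + PBS. The NaIO3 groups measured 118, 123 and 131 CPM in AL + NaIO3 and 158, 144 and 164 CPM in IF + NaIO3. The AL + NaIO3 libraries were again the lowest of the 12, but the log2 fold changes of -0.45 ± 0.11 (adjusted p = 0.26) against AL + PBS and 0.32 ± 0.12 (adjusted p = 0.38) for IF + NaIO3 against AL + NaIO3 were not called. IF + NaIO3 differed from IF + PBS by -0.20 ± 0.10 (adjusted p = 0.37).

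Srebf1, whose main product acts on fatty acid genes, did not run in parallel with Srebf2. It measured 172, 157 and 166 CPM in AL + PBS and 141, 149 and 145 CPM in IF + PBS. With NaIO3 the values were 200.2, 162 and 194 CPM in AL + NaIO3 and 134, 149 and 162 CPM in IF + NaIO3. The highest libraries were in AL + NaIO3, and the ranges of AL + PBS and AL + NaIO3 overlapped. Its log2 fold change was 0.18 ± 0.13 (adjusted p = 0.675) with NaIO3 under AL and -0.33 ± 0.14 (adjusted p = 0.415) for IF + NaIO3 against AL + NaIO3. In the deposited positions Srebf1 overlaps Rai1, and how reads there were assigned is not given in the sources used here.

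Insig2, the second INSIG gene, which is not switched on by SREBP in the same way, measured 46.0, 46.6 and 44.5 CPM in AL + PBS and 41.3, 43.1 and 39.5 CPM in IF + PBS. After NaIO3 it was 47.5, 42.6 and 59.8 CPM in AL + NaIO3 and 43.4, 52.7 and 43.4 CPM in IF + NaIO3. AL + NaIO3 replicate 3 was its highest library, the reverse of Insig1, for which that library was the lowest. On the log2 scale the difference was 0.14 ± 0.14 (adjusted p = 0.79) with NaIO3 under AL, and -0.02 ± 0.11 without that library. Scap, the escort, differed by -0.12 ± 0.11 (adjusted p = 0.75) in the same comparison.

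**Figure D2:**
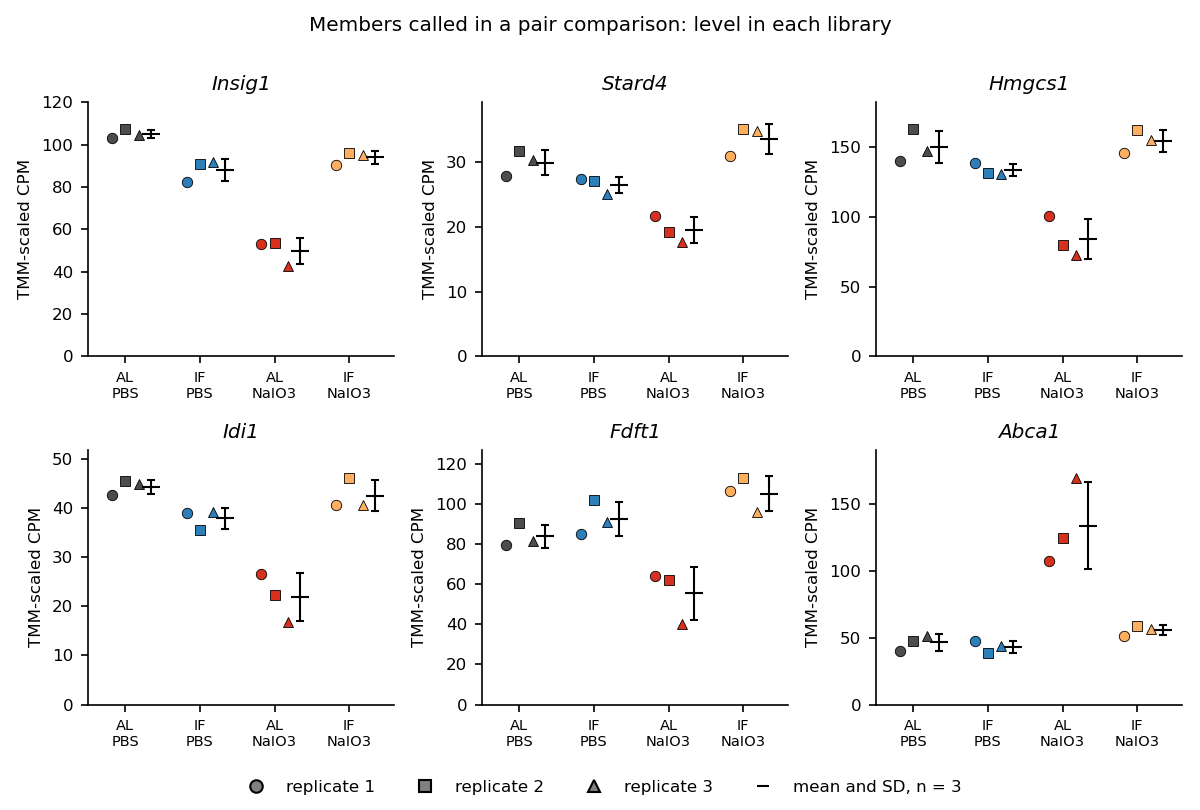
TMM-scaled CPM (vertical axes, each starting at 0) of Insig1, Stard4, Hmgcs1, Idi1, Fdft1 and Abca1, called in a fit of 6 or of 12 libraries, in the 4 groups; symbols are replicates 1 to 3 and the bar beside them is the mean with its SD (n = 3). For Insig1 the AL + NaIO3 libraries lie at 42.8 to 53.5 CPM and all others at 82.3 CPM or above, and for Abca1 they lie at 107 to 170.2 CPM and all others at 59.0 CPM or below.

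Among the 18 sterol synthesis enzymes, 16 had a negative log2 fold change in AL + NaIO3 against AL + PBS, with a median of -0.369, where the median over all genes tested was 0.014 and 52.3% of all genes were positive. For 14 of the 18 every AL + NaIO3 library was below every AL + PBS library, as were 8.32% of all genes tested. In IF + NaIO3 against AL + NaIO3, 17 of the 18 were positive, with a median of 0.519 (all genes -0.013), and for 13 every IF + NaIO3 library was higher (8.7% of all genes). Relative to the AL + PBS mean of each gene, the median of the 18 was -0.212, -0.328 and -0.538 on the log2 scale in the AL + NaIO3 libraries, between -0.036 and 0.054 in IF + PBS, and between 0.006 and 0.142 in IF + NaIO3. No AL + NaIO3 library overlapped any other group in this measure. Between the IF groups 4 of the 18 had every NaIO3 library higher (Hmgcs1, Idi1, Cyp51 and Sc5d, against 10.3% of all genes) and 2 every one lower (Nsdhl and Dhcr7, against 10.7% of all genes). Between the PBS groups 4 had every IF library higher (Acat2, Dhcr7, Mvd and Nsdhl, against 10.3% of all genes) and 4 every one lower (Hmgcs1, Hsd17b7, Idi1 and Sc5d, against 11.6%).

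In AL + NaIO3 replicates 1, 2 and 3, respectively, 16, 17 and 16 of the 18 sterol enzymes were below their AL + PBS mean. The photoreceptor marker sums of these libraries were 69299, 40636 and 21269 CPM, the same order as their sterol medians, and the first was the highest of all 12 libraries. Without AL + NaIO3 replicate 3 the median over the 18 was -0.274 against AL + PBS and 0.44 for IF + NaIO3 against AL + NaIO3. The RPE markers were also lower in AL + NaIO3 (1088 to 1877 CPM summed) than in AL + PBS (2127 to 2311 CPM), with 4 of 12 above their AL + PBS mean, and in IF + NaIO3 they spread from 1235 to 2167 CPM with 1 of 12 above it. Of the 15 photoreceptor markers 3 were above their AL + PBS mean in AL + NaIO3 and 8 in IF + NaIO3. Of the 9 Mueller cell and astrocyte markers 7 were above it in AL + NaIO3 (4087 to 5224 CPM summed, against 4320.0 to 4823 CPM in AL + PBS) and 1 in IF + NaIO3 (4045 to 4184 CPM). The part of these cells in the sterol values was not tested.

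Hmgcs1 (chr13:119690379-119708260) makes HMG-CoA, the substrate from which mevalonate is formed. With 38.0 FPKM on average in AL + PBS it was the highest of the 18 per length. Its level was 140.1, 163 and 147 CPM in AL + PBS and 139, 132 and 130.5 CPM in IF + PBS. The NaIO3 groups measured 100.4, 79.9 and 72.6 CPM in AL + NaIO3 and 146, 162 and 155 CPM in IF + NaIO3. Every AL + NaIO3 library lay below every other library. Its log2 fold change was -0.83 ± 0.15 (adjusted p = 0.14) against AL + PBS and 0.87 ± 0.15 (adjusted p = 0.11) for IF + NaIO3 against AL + NaIO3, and the interaction was 1.04 ± 0.17 (adjusted p = 0.074, and 0.042 without the filter on low counts). Fitted with all 12 libraries, the first and second passed (adjusted p = 0.0087 and 0.0056).

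Idi1 (chr13:8885501-8892451), which interconverts the isoprene units from which sterols are built, had the largest log2 fold change of the enzymes. It measured 42.8, 45.6 and 45.0 CPM in AL + PBS and 39.2, 35.5 and 39.3 CPM in IF + PBS. With NaIO3 the values were 26.7, 22.3 and 16.9 CPM in AL + NaIO3 and 40.8, 46.3 and 40.8 CPM in IF + NaIO3. Again AL + NaIO3 did not overlap the other groups. The values were -1.01 ± 0.18 (adjusted p = 0.13) and 0.95 ± 0.18 (adjusted p = 0.17) in the NaIO3 and diet comparisons, and 1.18 ± 0.21 (adjusted p = 0.081) for the interaction. All 12 libraries together gave calls in the NaIO3 and diet comparisons (adjusted p = 0.0083 and 0.0097).

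Fdft1 (chr14:63145150-63179578) encodes squalene synthase, the first enzyme that commits isoprenoids to sterols. Its level was 79.7, 90.5 and 81.3 CPM in AL + PBS and 84.9, 102 and 91.1 CPM in IF + PBS. After NaIO3 it was 64.0, 61.8 and 40.3 CPM in AL + NaIO3 and 106, 113 and 95.8 CPM in IF + NaIO3. The IF + NaIO3 libraries were above all AL libraries. On the log2 scale the fold change was -0.59 ± 0.18 (adjusted p = 0.32) with NaIO3 under AL and 0.92 ± 0.18 (adjusted p = 0.18) for IF + NaIO3 against AL + NaIO3, and the second passed with all 12 libraries (adjusted p = 0.017). In position Fdft1 overlaps Ctsb, a lysosomal protease gene, and whether the counting used the strand that the library kit keeps is not given, so its counts are less certain.

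Msmo1, a demethylase late in the pathway, measured 62.2, 67.3 and 71.6 CPM in AL + PBS and 58.0, 58.7 and 71.7 CPM in IF + PBS. The NaIO3 groups measured 59.3, 44.6 and 34.4 CPM in AL + NaIO3 and 70.3, 81.1 and 76.1 CPM in IF + NaIO3. Its libraries did not overlap between AL + NaIO3 and IF + NaIO3 (log2 fold change 0.71 ± 0.19, adjusted p = 0.25), and DESeq2 called that difference (adjusted p = 0.045). Nsdhl, which acts at a neighbouring step, measured 19.6, 18.4 and 17.7 CPM in AL + PBS, 20.4, 20.5 and 24.2 CPM in IF + PBS, 16.6, 16.0 and 11.7 CPM in AL + NaIO3 and 18.9, 18.9 and 16.0 CPM in IF + NaIO3. Its IF + PBS libraries were the highest of the 12, and the NaIO3 groups overlapped. Its difference between IF + NaIO3 and IF + PBS was -0.27 ± 0.14 (adjusted p = 0.37), whereas that of Msmo1 was 0.27 ± 0.11 (adjusted p = 0.29).

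Tm7sf2 and Mvd had the largest log2 fold changes of the sterol enzymes between the PBS groups. Tm7sf2, a sterol reductase, measured 19.3, 10.8 and 13.0 CPM in AL + PBS against 18.1, 23.9 and 24.3 CPM in IF + PBS, 11.3, 14.3 and 14.2 CPM in AL + NaIO3 and 19.6, 19.1 and 19.6 CPM in IF + NaIO3. Mvd, which makes the isoprene unit that Idi1 acts on, measured 18.0, 19.3 and 18.5 CPM, 23.0, 22.0 and 30.5 CPM, 17.0, 14.8 and 11.3 CPM, and 25.98, 22.4 and 17.1 CPM in the same order of groups. For both, the IF libraries were mostly above the AL libraries with the same injection, with overlap only for Tm7sf2 between the PBS groups. The fold change on the log2 scale in IF + PBS against AL + PBS was 0.63 ± 0.21 (adjusted p = 0.21) for Tm7sf2 and 0.44 ± 0.14 (adjusted p = 0.20) for Mvd, and neither was called. Leaving out 1 library gave values from 0.46 to 0.9 for Tm7sf2 and from 0.28 to 0.53 for Mvd. Marker sums also differed between the PBS groups without overlap. In IF + PBS against AL + PBS, RPE markers summed to 2367 to 2930.1 against 2127 to 2311 CPM, stroma to 88.6 to 145 against 166 to 236 CPM, skeletal muscle to 38.8 to 134 against 162 to 321 CPM, and lens and cornea to 5.09 to 13.0 against 21.3 to 94.4 CPM. Photoreceptor markers summed to 54008 to 59096 against 60215 to 63565 CPM, and choroid endothelium to 177 to 181 against 201 to 211 CPM. Mueller cell and astrocyte markers summed to 4050 to 4139 against 4320 to 4823 CPM. In that order of lists 6 of 12, 1 of 8, 0 of 9, 1 of 10, 3 of 15, 5 of 8 and 4 of 9 markers were above their AL + PBS mean in IF + PBS. The part of these cells in the differences between the PBS groups was not tested. This holds here, for the SREBP control genes above, and for Acly and Elovl6 further on. Tm7sf2 overlaps Vps51 and Mvd overlaps Galnt2l in position.

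The other 11 sterol enzymes were not called by edgeR in any comparison with all replicates. With AL + NaIO3 replicate 1 left out, edgeR called the interaction for Sc5d (adjusted p = 0.030) and Sqle (adjusted p = 0.048). In AL + NaIO3 against AL + PBS their log2 fold changes ran from -0.77 ± 0.24 (adjusted p = 0.33) for Fdps, the farnesyl diphosphate synthase, to 0.09 ± 0.12 (adjusted p = 0.83) for Pmvk, a kinase of the mevalonate steps. Sqle, Lss, Cyp51 and Sc5d, which carry squalene through lanosterol toward cholesterol, lay between -0.37 and -0.48, and between -0.28 and -0.46 without AL + NaIO3 replicate 3. Between the diets under NaIO3 the same 11 ran from -0.06 for Pmvk to 0.82 for Fdps. Pmvk and Ebp, an isomerase, were the only enzymes of the 18 with a positive value under NaIO3 in AL mice, at 0.09 each (0.09 and 0.06 without AL + NaIO3 replicate 3). Acat2 has a close copy next to it in the genome that could share its reads.

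**Figure D3:**
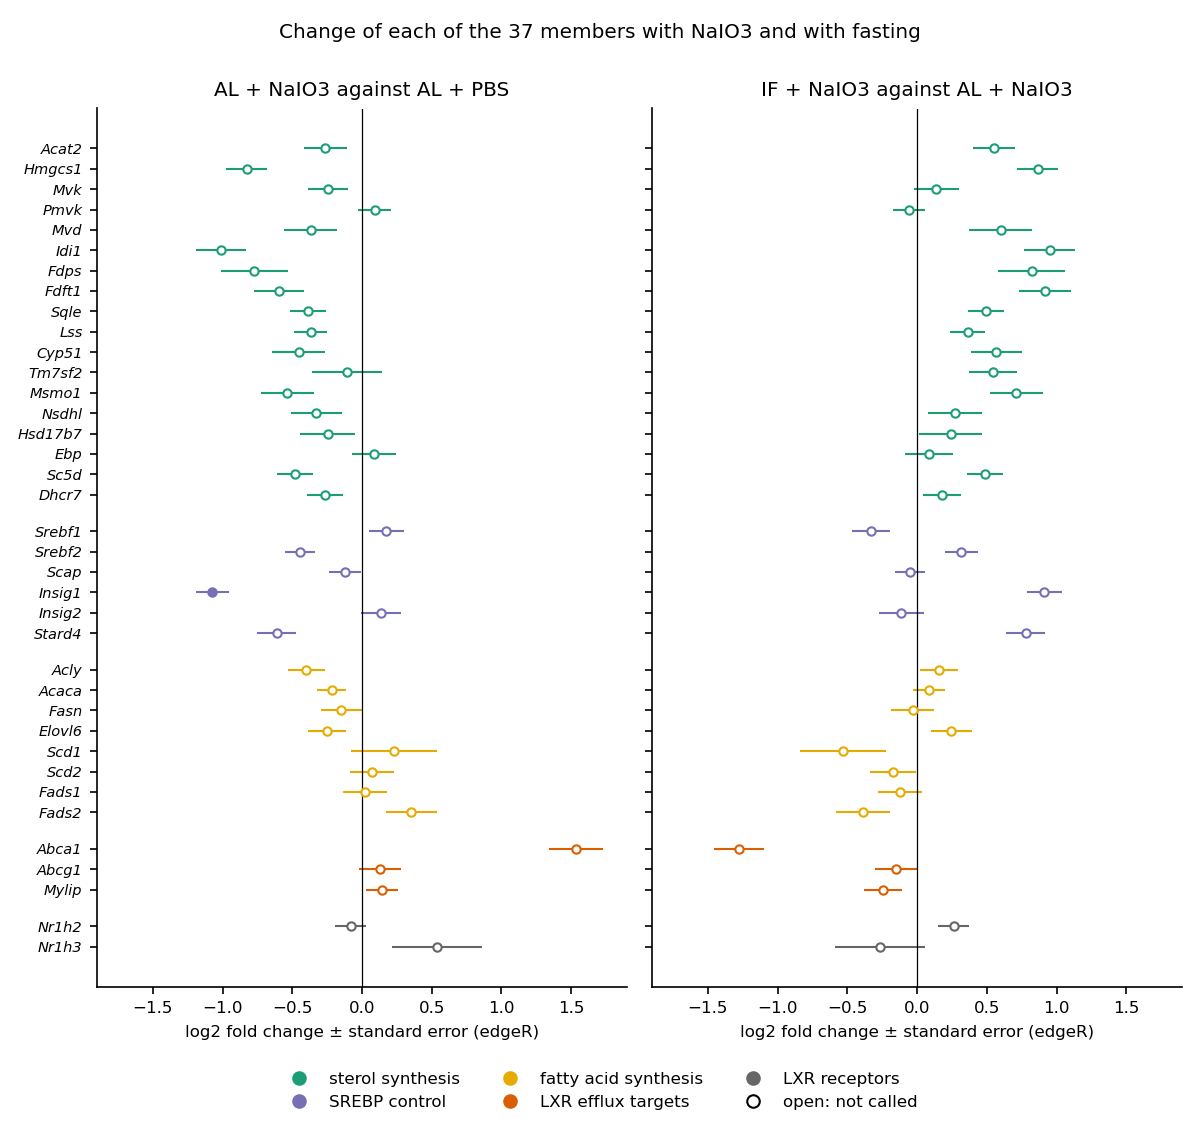
edgeR log2 fold change with its standard error for each of the 37 members, in AL + NaIO3 against AL + PBS (left) and IF + NaIO3 against AL + NaIO3 (right), colored by role; the filled symbol is the called member and open symbols are not called. Sterol synthesis genes lie mostly left of 0 in the first panel (16 of 18) and right of 0 in the second (17 of 18); the panels share the AL + NaIO3 libraries, so they are not independent.

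Promoters of the members whose levels separated most are shown because SREBP works at short elements close to the start site, beside the factor NF-Y. The windows run from 250 bases before to 50 bases after the annotated start (RefSeq, build GRCm38.p6), 29 of the 37 members had at least 1 window there, and capitals mark TCACNCCAC, a sterol regulatory element, and CCAAT, the NF-Y motif, on either strand (CCAAT on the minus strand reads ATTGG). No marked motifs overlapped. The Insig1 window is chr5:28071162-28071461 on the plus strand, that of Hmgcs1 chr13:119690101-119690400 on the plus strand and that of Idi1 chr13:8885356-8885655 on the plus strand.
Insig1: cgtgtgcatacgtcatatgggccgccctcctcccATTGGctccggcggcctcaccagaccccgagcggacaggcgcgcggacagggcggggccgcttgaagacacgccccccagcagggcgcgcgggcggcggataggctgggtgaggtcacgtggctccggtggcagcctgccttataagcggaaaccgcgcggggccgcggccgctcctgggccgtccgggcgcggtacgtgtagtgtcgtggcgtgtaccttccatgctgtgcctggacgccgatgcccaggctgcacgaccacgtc
Hmgcs1: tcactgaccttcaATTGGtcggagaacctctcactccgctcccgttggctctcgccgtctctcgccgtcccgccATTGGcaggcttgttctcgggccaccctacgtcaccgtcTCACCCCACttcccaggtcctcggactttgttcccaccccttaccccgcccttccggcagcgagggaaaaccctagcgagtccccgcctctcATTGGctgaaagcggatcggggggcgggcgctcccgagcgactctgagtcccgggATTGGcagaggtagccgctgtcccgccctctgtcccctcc
Idi1: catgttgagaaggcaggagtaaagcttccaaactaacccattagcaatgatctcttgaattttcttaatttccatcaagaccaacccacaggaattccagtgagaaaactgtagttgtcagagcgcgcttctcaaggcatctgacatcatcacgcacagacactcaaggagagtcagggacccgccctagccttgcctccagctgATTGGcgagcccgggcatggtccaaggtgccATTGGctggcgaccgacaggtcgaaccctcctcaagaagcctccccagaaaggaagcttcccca

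The Hmgcs1 window held the sterol regulatory element as TCACCCCAC, at positions -137 to -129 from the start. It was the only one of the 38 member windows with that motif, which 1.24% of all 32851 windows in the table held. The SREBP E-box TCACGTGA was in 0 member windows and 0.974% of all windows. CCAAT was in at least 1 window of 14 of the 15 sterol enzymes that had one, Acat2 being the exception, and counted by window it was in 14 of 18 for the sterol enzymes, 5 of 10 for SREBP control and 2 of 5 for the fatty acid genes, against 37.4% of all windows. The Hmgcs1 window held 4 copies, Idi1 2 and Insig1 1. A match describes letters and was not tested as a binding site, and no match says only that these letters are not in this window.

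The 8 fatty acid genes had no call in any comparison by edgeR on 6 or 12 libraries or by DESeq2. An exception was the interaction for Acly without AL + NaIO3 replicate 1 (adjusted p = 0.047). Their log2 fold changes in AL + NaIO3 against AL + PBS ran from -0.40 to 0.35 with 4 of 8 negative and a median of -0.063. Between the diets under NaIO3 they ran from -0.53 to 0.25 with 5 of 8 negative and a median of -0.078, so their signs were mixed in both. Between the IF groups 7 of 8 were negative, with a median of -0.172 (all genes 0.001), and Fasn, Elovl6 and Fads1 had every NaIO3 library lower (10.7% of all genes). RPE markers also summed to less in IF + NaIO3 (1235 to 2167 CPM) than in IF + PBS (2367 to 2930.1 CPM). Lens and cornea markers summed to more (14.0 to 72.8 against 5.09 to 13.0 CPM). The part of these cells in the difference between the IF groups was not tested. Without AL + NaIO3 replicate 3 the first median was -0.213 and the second 0.065. Scd2, a stearoyl-CoA desaturase, was the highest of all 37 members per length, at 73.5 FPKM on average in AL + PBS.

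Acly supplies cytosolic acetyl-CoA to both pathways. It measured 249, 235 and 234 CPM in AL + PBS and 207, 181 and 181 CPM in IF + PBS. With NaIO3 the values were 207, 163 and 172 CPM in AL + NaIO3 and 193, 207 and 208 CPM in IF + NaIO3. The AL + PBS libraries were above all 9 others. Its log2 fold change was -0.33 ± 0.09 (adjusted p = 0.18) in IF + PBS and -0.40 ± 0.13 (adjusted p = 0.36) in AL + NaIO3, each against AL + PBS. Acaca, which makes malonyl-CoA, also had every AL + NaIO3 library (95.7 to 104 CPM) below every AL + PBS library (117 to 119.6 CPM), at -0.22 ± 0.10 (adjusted p = 0.51), and these were the only fatty acid genes so placed (8.32% of all genes).

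Fasn, the fatty acid synthase, measured 168, 168 and 153 CPM in AL + PBS, 161, 180.0 and 174 CPM in IF + PBS, 129, 136 and 174 CPM in AL + NaIO3, and 151, 129.9 and 152 CPM in IF + NaIO3. Its difference between IF + NaIO3 and IF + PBS was -0.25 ± 0.10 (adjusted p = 0.29). Elovl6, an elongase, measured 84.4, 89.4 and 78.8 CPM in AL + PBS, 97.1, 97.9 and 95.8 CPM in IF + PBS, 63.6, 83.8 and 64.0 CPM in AL + NaIO3, and 93.7, 79.8 and 78.7 CPM in IF + NaIO3. All IF + PBS libraries of Elovl6 were above the other 9, at 0.21 ± 0.09 against AL + PBS (adjusted p = 0.27).

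The desaturases turned on the library that stood apart. Scd1 measured 17.5, 19.7 and 19.1 CPM in AL + PBS, 13.6, 25.4 and 13.8 CPM in IF + PBS, 17.9, 14.1 and 33.7 CPM in AL + NaIO3, and 15.1, 14.6 and 16.1 CPM in IF + NaIO3. Fads2 measured 86.3, 95.03 and 88.2 CPM, 90.8, 97.7 and 102 CPM, 99.95, 93.9 and 149 CPM, and 95.2, 76.9 and 91.1 CPM in the same order, and Fads1 79.7, 85.3 and 72.9 CPM, 81.4, 92.4 and 84.2 CPM, 64.8, 78.7 and 96.9 CPM, and 75.6, 69.2 and 77.0 CPM. In all of these and in Scd2 (609 CPM) AL + NaIO3 replicate 3 was the highest of the 12 libraries, the same library in which Idi1, Fdps and Fdft1 were the lowest. The Scd1 log2 fold change in AL + NaIO3 against AL + PBS was 0.23 ± 0.31 with this library and -0.23 ± 0.16 without it, that of Fads2 0.35 and 0.11, and the median of the 8 genes -0.063 and -0.213. The adipocyte marker sum was also highest in this library (23.0 CPM against 6.51 to 14.0 CPM elsewhere), as was the stroma sum (1476 CPM against 88.6 to 236 CPM). Highest there too were the sums of macrophage and microglia (1027 CPM), Mueller cell and astrocyte (5224 CPM) and choroid endothelium markers (505 CPM). The same held for inner retinal neuron (1997 CPM), myelinating cell (152 CPM) and neutrophil markers (7.25 CPM). In AL + NaIO3 5 of 10 adipocyte and 8 of 8 stroma markers were above their AL + PBS mean, and Lep had at most 3 counts in any group. The part of these cells in the desaturase values was not tested.

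**Figure D4:**
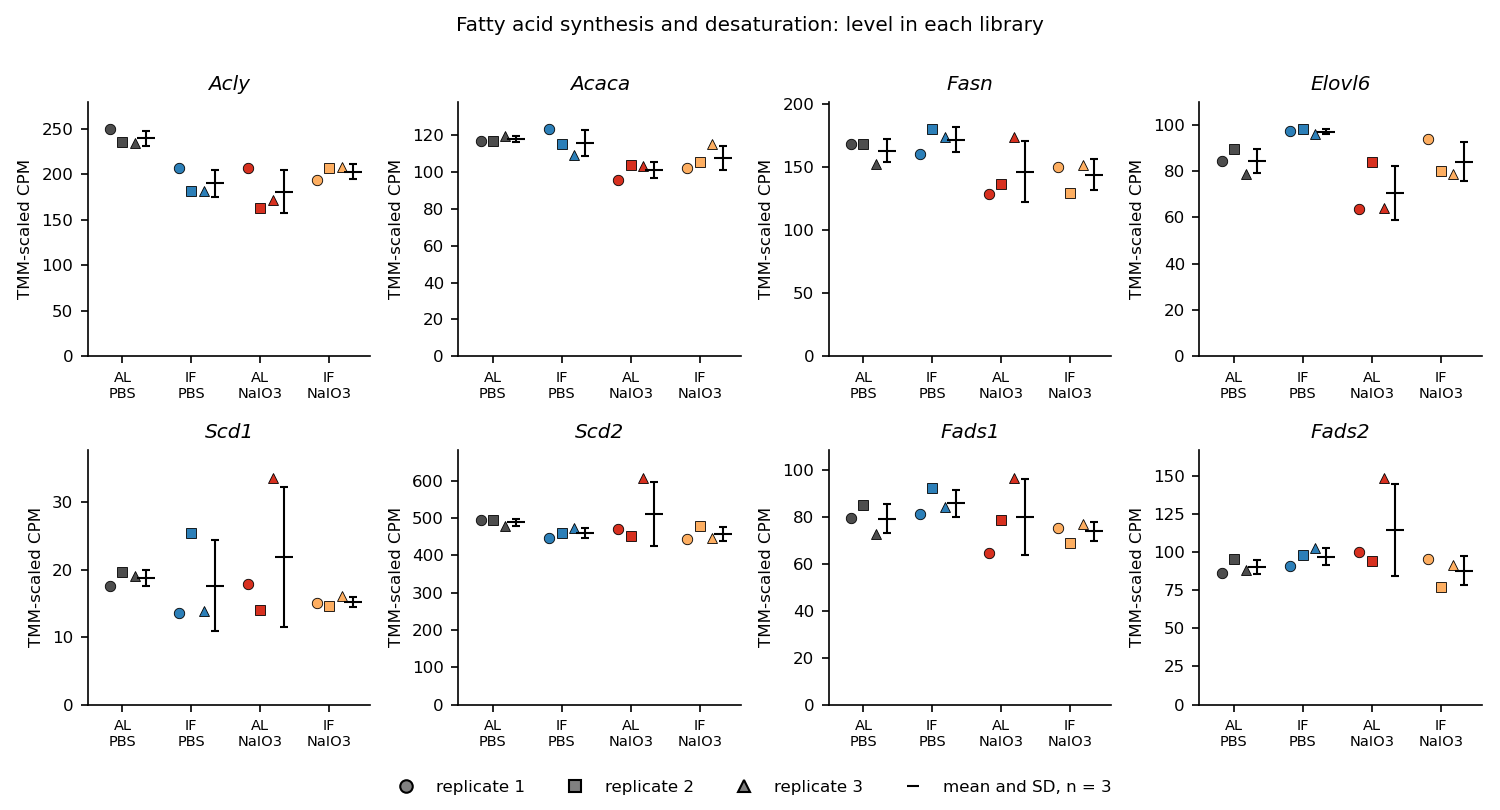
TMM-scaled CPM (vertical axes, each starting at 0) of the 8 fatty acid genes in the 4 groups, with replicates as symbols and the mean with its SD beside them (n = 3). The wide AL + NaIO3 bars for Scd1, Scd2, Fads1 and Fads2 come from replicate 3, at 33.7, 609, 96.9 and 149 CPM.

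Abca1 (chr4:53030787-53159895) encodes the transporter that loads cholesterol onto apolipoproteins outside the cell. In AL + NaIO3 against AL + PBS it was higher, while 16 of the 18 sterol enzymes had lower values. Its level was 39.8, 48.0 and 51.8 CPM in AL + PBS and 47.5, 38.3 and 43.7 CPM in IF + PBS. After NaIO3 it was 107, 125 and 170.2 CPM in AL + NaIO3 and 51.5, 59.0 and 56.4 CPM in IF + NaIO3. The AL + NaIO3 libraries were all above the other 9. Against the AL + PBS libraries alone, 9.79% of all genes tested were higher in every AL + NaIO3 library. The share of genes above all 9 was not counted. On the log2 scale the fold change in AL + NaIO3 against AL + PBS was 1.53 ± 0.19 (adjusted p = 0.056), just outside the threshold on 6 libraries, and it passed with all 12 fitted together (1.52, adjusted p = 0.00082) and without AL + NaIO3 replicate 3 (1.32, adjusted p = 0.0067). Leaving out any other library gave no call, with an adjusted p of up to 0.395. For IF + NaIO3 against AL + NaIO3 it was -1.28 ± 0.18 (adjusted p = 0.085), and -1.26 (adjusted p = 0.0041) and -1.07 (adjusted p = 0.0082) in those fits. The interaction was -1.16 ± 0.22 (adjusted p = 0.11) by edgeR and -1.17 (adjusted p = 0.0013) by DESeq2.

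In the mice under IF, the log2 fold change of Abca1 with NaIO3 was 0.37 ± 0.11 (adjusted p = 0.22), which was not called. Its groups did not overlap, as held in this direction for 10.3% of all genes tested. Markers of macrophages and microglia were high in the same group. All 14 were above their AL + PBS mean in AL + NaIO3, where they summed to 187 to 1027 CPM, against 77.7 to 88.1 CPM in AL + PBS, 64.7 to 90.6 CPM in IF + PBS and 62.7 to 88.0 CPM in IF + NaIO3, where 4 of 14 were above it. Aif1 was the only marker of this list with 3 counts or fewer throughout a group (IF + PBS). In AL + NaIO3 replicates 1, 2 and 3 the sum was 260.4, 187 and 1027 CPM beside 107, 125 and 170.2 CPM of Abca1, so replicate 3 was the highest in both. All 8 stroma and all 8 choroid endothelium markers were also above their AL + PBS mean in AL + NaIO3. The part of these cells in the Abca1 level was not tested.

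Neither of the other targets of the receptors was called in any comparison. Abcg1, which exports cholesterol to lipoprotein particles, measured 134, 129 and 128 CPM in AL + PBS and 132, 128 and 134 CPM in IF + PBS. The NaIO3 groups measured 170.1, 138 and 118 CPM in AL + NaIO3 and 135, 126 and 126 CPM in IF + NaIO3. Its highest and its lowest library were both in AL + NaIO3, and the lowest, replicate 3, was the one with the most Abca1. Its log2 fold change was 0.13 ± 0.15 (adjusted p = 0.81) with NaIO3 under AL and -0.15 ± 0.15 (adjusted p = 0.71) for IF + NaIO3 against AL + NaIO3. Without AL + NaIO3 replicate 3 these values were 0.24 ± 0.12 (adjusted p = 0.46) and -0.27 ± 0.13 (adjusted p = 0.59), and the remaining AL + NaIO3 libraries were above all others.

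Mylip, a ubiquitin ligase that lowers the uptake of lipoproteins, measured 39.5, 45.4 and 45.3 CPM in AL + PBS and 40.6, 36.0 and 38.2 CPM in IF + PBS. With NaIO3 the values were 45.3, 48.8 and 49.3 CPM in AL + NaIO3 and 34.9, 46.4 and 40.2 CPM in IF + NaIO3. The groups overlapped in all 4 pair comparisons. The log2 fold changes were 0.15 ± 0.11 (adjusted p = 0.70) and -0.25 ± 0.14 (adjusted p = 0.525) in the NaIO3 comparison under AL and the diet comparison under NaIO3.

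Of the receptors, Nr1h2 (LXR beta) had the higher level per length, at 40.7 FPKM on average in AL + PBS against 1.95 FPKM for Nr1h3 (LXR alpha), the lowest of all 37 members. Nr1h2 measured 95.02, 79.5 and 81.9 CPM in AL + PBS and 92.7, 115 and 109.7 CPM in IF + PBS. After NaIO3 it was 81.1, 78.2 and 82.0 CPM in AL + NaIO3 and 100.3, 101 and 88.9 CPM in IF + NaIO3. The IF libraries overlapped the AL libraries with PBS and lay above them with NaIO3, with a log2 fold change of 0.31 ± 0.11 (adjusted p = 0.23) in PBS mice and 0.26 ± 0.11 (adjusted p = 0.415) in NaIO3 mice, neither called. Nr1h3 measured 4.97, 3.21 and 4.29 CPM, 4.96, 6.28 and 5.55 CPM, 4.17, 6.54 and 7.33 CPM, and 5.81, 3.91 and 5.37 CPM in the same order, and its difference with NaIO3 under AL was 0.54 ± 0.32 (adjusted p = 0.61), with overlapping groups.

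**Figure D5:**
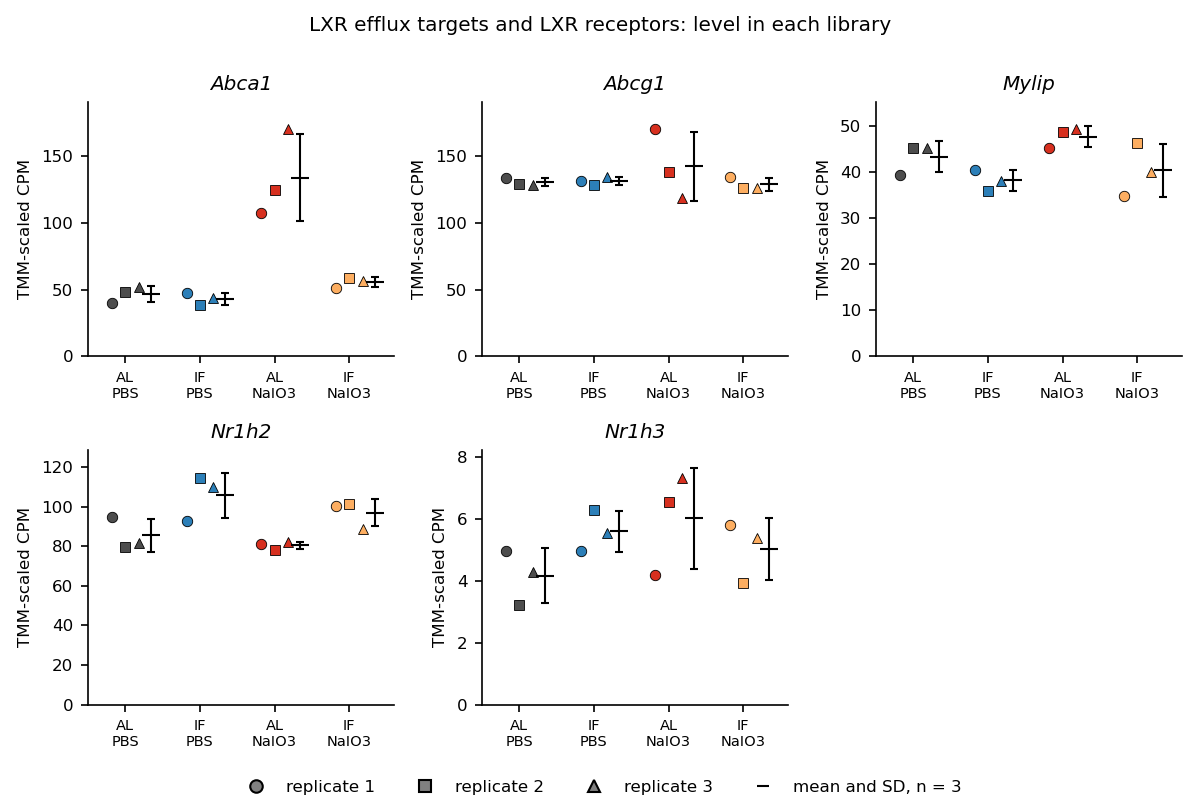
TMM-scaled CPM (vertical axes, each starting at 0) of Abca1, Abcg1, Mylip, Nr1h2 and Nr1h3 in the 4 groups, with replicates as symbols and the mean with its SD beside them (n = 3). Only for Abca1 do the AL + NaIO3 libraries (107 to 170.2 CPM) lie apart from all other libraries.

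The Abca1 window, chr4:53159846-53160145 on the minus strand, is shown as the promoter of the member that differed most. It held no exact copy of the sterol regulatory element, of CCAAT or of the LXR motif, AGGTCA repeated on 1 strand with any 4 bases between, so it carries no capitals. Repeats with changed letters were not searched for. The exact repeat was in 0 of the 38 member windows and 0.0152% of all windows.
Abca1: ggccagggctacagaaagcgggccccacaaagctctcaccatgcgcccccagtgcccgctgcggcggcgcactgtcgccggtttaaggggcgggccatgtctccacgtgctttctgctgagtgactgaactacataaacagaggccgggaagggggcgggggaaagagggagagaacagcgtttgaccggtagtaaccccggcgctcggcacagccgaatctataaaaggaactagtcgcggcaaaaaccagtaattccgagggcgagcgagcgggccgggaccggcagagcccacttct

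Further genes of the same pathways were counted from lists fixed by name, with the same knowledge of earlier results as the members. In AL + NaIO3 against AL + PBS, edgeR on 6 libraries called 0 of 19 other sterol pathway genes tested, 0 of 21 other fatty acid pathway genes and 0 of 19 other LXR target and cholesterol handling genes. At an unadjusted p under 0.05 these lists had 3, 4 and 6 genes, where 10.2% of all genes tested passed, and DESeq2 called 3 sterol genes, all lower, 0 fatty acid genes and 2 cholesterol handling genes, both higher (2.53% of all genes). Between the diets under NaIO3, edgeR again called 0 in each list, with 4, 1 and 7 at an unadjusted p under 0.05 (11.7% of all genes). DESeq2 called 1 sterol gene, higher, 0 fatty acid genes and 2 cholesterol handling genes, lower (2.94% of all genes). The median log2 fold change of the other sterol genes was -0.033 and 0.061 in these comparisons, nearer to 0 than that of the 18 enzymes.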

How the data were processed

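RNA of the RPE, choroid and sclera complex was sequenced in 12 libraries, 3 per group. The authors deposited a table of raw read counts per gene and a table of FPKM values, which divide by gene length and depth. Per the labels, HISAT2 and StringTie were used, and the program that made the counts is not given in the sources used here. The sources name build GRCm39, but the deposited positions of 21203 of 21221 genes matched by symbol overlap their GRCm38.p6 positions, so coordinates are given as GRCm38. The authors' own table of comparisons was not used. The sources differ on single-end or paired-end reads.

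The members and lists were chosen with earlier results of these data known. Counts were tested with edgeR 4.0.16 (R 4.3.3; TMM factors, filterByExpr, glmQLFit, glmQLFTest) on the 6 libraries of each pair and, for the interaction, on all 12, with Benjamini-Hochberg adjustment over all genes tested; a call needed an adjusted p under 0.05 and, between pairs, a fold change of at least 1.5. Standard errors are the log2 fold change over the square root of F. All 37 members passed the filter in each comparison. Values per library were given for every member called in the 6-library or 12-library fits, for the 2 members with the largest difference of the sterol, SREBP and fatty acid lists in each pair comparison, and for the INSIG, SREBP and LXR genes and targets. Alternatives were DESeq2 1.42.0, upper quartile scaling, no filter, at least 10 counts in every library, a fit of all 12 libraries, a replicate block, and leaving out each library. The scripts were tested on simulated data. The methods describe extraction from both eye cups of a mouse together under qPCR. For sequencing they name eye cup tissue without stating whether eyes were pooled. The study gives 3 samples per group, and the labels do not say which mouse a library came from. Library totals were 26364665 to 43046950 counts; no pair of libraries of a group agreed within sampling noise.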

Additional observations from a re-analysis of the deposited data

Results flagged for a closer look

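Insig1 was singled out because its difference with NaIO3 differed between the diets: the interaction of diet and injection was 1.17 on the log2 scale (edgeR's quasi-likelihood test, adjusted p = 0.0098). Under AL all 3 NaIO3 libraries (42.8 to 53.5 CPM) lay below all 3 PBS libraries (103 to 107 CPM), and under IF the NaIO3 libraries (90.6 to 96.2 CPM) overlapped the PBS libraries (82.3 to 91.8 CPM). The interaction passed the threshold when any 1 of 11 libraries was left out and missed it without AL + PBS replicate 3 (1.18, adjusted p = 0.052).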

How the results depend on the processing

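Member counts depended on the test and on single libraries, while no member called in any fit changed direction in the alternatives run. In AL + NaIO3 against AL + PBS, 1 member was called, 2 with upper quartile scaling (Insig1 and Abca1), 2 without the filter on low counts, 5 with all 12 libraries and 5 by DESeq2. Over all genes, calls in these fits numbered 12, 13, 19, 177 and 446. Leaving out 1 library gave 0 to 3 members (3 without AL + NaIO3 replicate 3, where calls over all genes went from 12 to 90, and 0 without any other). In IF + NaIO3 against AL + NaIO3, 0 became 1 with the replicate block (Abca1, adjusted p = 0.036), 6 with all 12 libraries and 7 by DESeq2, and 0 to 3 when 1 library was left out (3 without AL + NaIO3 replicate 3, where calls over all genes went from 6 to 75). Over all genes, 6 calls became 28 with the block, 190 with all 12 libraries and 500 by DESeq2. For the interaction, 1 became 2 without the filter and 6 by DESeq2, and 0 to 9 when 1 library was left out (0 without AL + PBS replicate 3, 9 without AL + NaIO3 replicate 1, 4 without AL + NaIO3 replicate 3, where calls over all genes went from 5 to 3, 366 and 32). Its 5 calls over all genes became 13 without the filter and 212 by DESeq2. The cause of these differences was not tested. The fatty acid median ranged from -0.213 to 0.021 against AL + PBS and from -0.161 to 0.065 for IF + NaIO3 against AL + NaIO3 when 1 library was left out; the extremes -0.213 and 0.065 are without AL + NaIO3 replicate 3. The 21 single-member results examined had 297 alternative values. Of these, 243 kept their call and direction, 47 passed the threshold where the first value did not, 7 no longer passed and 0 reversed. Uncalled members could reverse: with 1 library left out, Scd1 ranged from -0.23 to 0.46 in AL + NaIO3 against AL + PBS. Deviations of same-numbered replicates correlated at -0.0999 to 0.137, and 2 of 6 libraries at most correlated best with their own number. The sample labels give only the number, and this check cannot exclude a shared day or batch. With the replicate block in edgeR, 28, 5, 28 and 0 genes were called in the 4 pair comparisons in place of 12, 0, 6 and 0. Insig1 then lost its call in AL + NaIO3 against AL + PBS (adjusted p = 0.064) and Abca1 gained one (adjusted p = 0.021). Each member had at least 130 counts in every library, and whether depth or the number of libraries limits the calls was not tested.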
